A study of Mus musculus with 92 samples.

Results

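Polyadenylated RNA 12 h after loss of GABPA was described gene by gene in mouse embryonic stem cells. The comparison used 4 RNA-seq libraries of 92 samples in the series: 2 from cells given dTAG-13 and 2 from cells given the solvent DMSO, all in the same line and harvested 12 h after addition. Members were every gene with enough reads in the RNA-seq libraries, which left 16396 of 56953 gene IDs. The line has a C57BL/6 (B6) background and both Gabpa alleles carry a dTAG degron (GabpadTAG/dTAG), a tag through which dTAG-13, used at 500 nM, recruits a ubiquitin ligase and sends the protein to the proteasome. Both groups therefore carried the tagged alleles and grew in the same medium, with serum, LIF, the MEK inhibitor PD0325901 and the GSK3 inhibitor CHIR99021. Lines with the degron on GABPB1 (Gabpb1dTAG/dTAG), or on GABPB1 and GABPB2 together (Gabpb1/b2dTAG/dTAG), were treated alike with 2 libraries per group, and served for comparison. SLAM-seq of the GABPA line, which marks newly made RNA with 4-thiouridine, served as a second readout. No untagged line given dTAG-13 was analysed here, so an effect of the compound and an effect of losing GABPA cannot be told apart in the GABPA line alone.

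GABP is a transcription factor of the ETS family that works as a complex. GABPA binds DNA at sites with the core letters GGAA, and GABPB1 or GABPB2 joins it through ankyrin repeats, brings the activation domain and pairs complexes into tetramers. Its sites lie mostly close to transcription starts of genes that nearly all cells use, and GABP is also called nuclear respiratory factor 2 for its sites in genes of the mitochondrial respiratory chain.

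The 4 libraries held 17235749 to 21405696 counts, and replicates correlated across genes at r = 0.9967 in DMSO and 0.9956 in dTAG-13. The design text calls the libraries biological duplicates, and the p-values measure only the spread between such samples. Changes are log2 fold changes of dTAG-13 over DMSO from edgeR's quasi-likelihood test, written with ± for the standard error that the test implies (2 libraries against 2). A gene is said to have risen or fallen where its p, adjusted over all tested genes, was under 0.05. Levels are in CPM, counts scaled to library size, or, where genes are compared with each other, in TPM, which also allow for gene length. Pluripotency markers were abundant, and the lists of markers of other cells had lower summed levels. The naive and general pluripotency genes had a summed level of 15236 and 15165 TPM in DMSO and 15322 and 15531 TPM in dTAG-13. Markers of endoderm, mesoderm, ectoderm and trophectoderm summed to 260 and 254 TPM and to 246 and 225 TPM, with Afp at 0 in all 4 libraries. Feeder fibroblast markers summed to 266 and 291 TPM in DMSO and 338 and 318 TPM in dTAG-13, and 2-cell-like genes to 57.8 to 64.7 TPM. Of 18 feeder markers listed, 2 (Col3a1 and Lum) were at 0 in all 4 libraries. Other feeder markers were detected: 11 had enough reads to be tested, of which 0 fell and 2 rose (median 0.32). The tagged protein is removed after translation, so mRNA levels do not check the degron. Gabpa mRNA rose in dTAG-13 (0.50 ± 0.077), as did Gabpb2 (0.85 ± 0.072), and Gabpb1 was at 52.5 and 41.3 CPM in DMSO and 138 and 150 CPM in dTAG-13 (1.62 ± 0.1). In bulk RNA, fewer cells of a type and less RNA per cell cannot be told apart, and this holds for every value below. How strands were handled is not stated in the sources used here. Reads of genes that overlap on opposite strands therefore cannot be told apart: 47 of the 166 genes named here overlap another tested gene in this way, among them Exosc4, Idh3b, Mrpl27, Ndufa13, Ndufs3, Nfs1, Polr2h, Prkab1, Rnaseh2b, Shq1, Trmt112, Twnk and Wdr3.

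Promoters of some genes that fell more than 4-fold are shown first. A string of letters bound by ETS factors was much more common in promoters of such genes than in other promoters. The string searched was CCGGAAG, with its reverse complement CTTCCGG, in the window from 250 bases before to 50 after each start site in the RefSeq table (GRCm38.p6). Each line below is the 30 bases around the match nearest to the start, on the strand of the gene, with the match in capitals. Only genes with a match could be shown, so the match in every line is no result, and they are not the steepest falls. The genes stand for different functions: tRNA modification, small nucleolar RNA assembly, mitochondrial translation, iron-sulfur clusters, ribosome assembly, peroxisomes, the tricarboxylic acid cycle, the COP9 signalosome, the proteasome and a pair of head-to-head genes.
Kti12: tccggttcctgCCGGAAGttgacgccaaac
Shq1: tccgcctccgtCCGGAAGcgctgtggtacg
Mrpl53: cagtgctactcCTTCCGGggtggaggtaac
Nfs1: cagcgcagttaCTTCCGGgagcatgggctg
Wdr3: ttccaatcggaCCGGAAGtggcgggtctcg
Ebna1bp2: caacgagaaaaCCGGAAGtgcggctatgaa
Pex6: gccccctatttCCGGAAGtggagtggtttc
Dlst: ggccggtctcaCTTCCGGttgctgccgggc
Cops7a: cggaagtacggCCGGAAGctggccatagaa
Pomp: ggaaggacgcaCTTCCGGcggatggggcgg
Psmd6: cagagacgcgaCCGGAAGtcagactggcgg
Ankib1: ggctgaaaaagCTTCCGGgtcggcccgcgg
Krit1: ggggcgtaaccCCGGAAGttattgcccggc

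In GRCm38.p6 these windows lie at chr4:108847834-108847863 (Kti12), chr6:100671134-100671163 (Shq1), chr6:83109081-83109110 (Mrpl53), chr2:156144161-156144190 (Nfs1), chr3:100162382-100162411 (Wdr3), chr4:118620785-118620814 (Ebna1bp2) and chr17:46711457-46711486 (Pex6). The others lie at chr12:85110823-85110852 (Dlst), chr6:124965513-124965542 (Cops7a), chr5:147860568-147860597 (Pomp), chr14:14120972-14121001 (Psmd6), chr5:3803101-3803130 (Ankib1) and chr5:3803151-3803180 (Krit1). The genes Kti12, Mrpl53, Ebna1bp2, Pex6, Dlst, Pomp and Krit1 are on the plus strand and the other 6 on the minus strand. The match stands in either orientation: Kti12 and Wdr3 carry CCGGAAG, and Nfs1 and Dlst carry its reverse complement. In Krit1 and Ebna1bp2 the middle base of the match is the start site itself.

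The share of promoters with these letters followed the size of the change. Among protein-coding genes with a promoter in the table, 60.6% of those that fell more than 4-fold held a match (172 of 284, exact 95% interval 54.6% to 66.3%), against 19% of all tested genes (2099 of 11019). The share was 60.5% for falls over 8-fold and 60.6% for falls of 4 to 8-fold. It was 46.3% for falls of 2 to 4-fold, 42.3% for 1.5 to 2-fold and 29.6% for smaller falls. Genes that were not called held a match in 13.7% of promoters, genes that rose less than 1.5-fold in 11.8% and genes that rose more than 1.5-fold in 7.29%. The intervals of these 3 classes lay below the share of all tested genes. Of the matches in promoters of genes that fell more than 4-fold, 44.3% lay within 50 bases before the start and 29.4% within 50 bases after it, against 35% and 24.5% for all tested genes. The shares were not matched for expression level, which also differed between genes that fell and other genes. A match is a description of letters and not a measured site. Genes without these exact letters in the window also fell more than 4-fold, among them Psmb4, Umps and Trmt112, and nothing about binding follows from that.

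**Figure D1:**
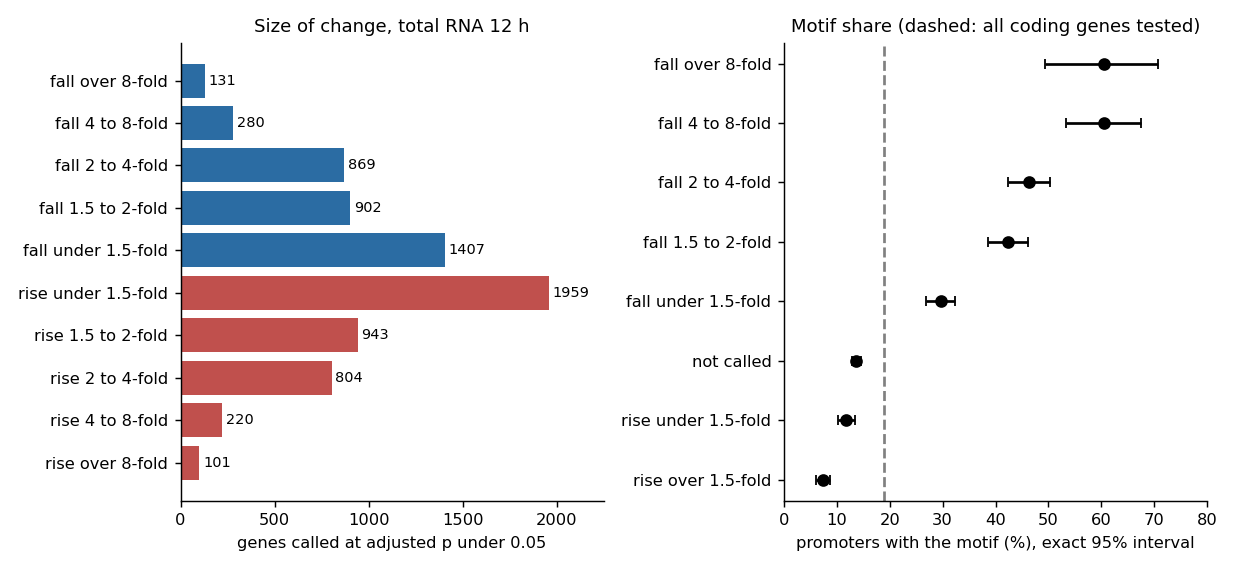
Left, number of genes called at an adjusted p under 0.05 in each band of fold change in total RNA 12 h after GABPA loss; right, percent of RefSeq promoters with CCGGAAG on either strand in the same bands, with exact 95% binomial intervals, and the share of all tested genes as a dashed line. The share rose from 7.29% for rises over 1.5-fold to 60.5% for falls over 8-fold, and bands of rises were joined because fewer than 80% of genes with larger rises had a promoter in the table.

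Of the 16396 genes tested, 46.5% were called, 21.9% lower and 24.6% higher. Most changes were small: the median called fall was −0.74 and the median called rise 0.60, beside a median of 0.06 over all tested genes. More than 4-fold falls were seen in 411 genes (2.51%) and rises of that size in 321, and these falls lay at higher levels than these rises. Genes were split into 4 groups of like size by mean TPM over all 4 libraries, so the change itself entered the split. The top group (over 27.5 TPM) held 62 genes that fell and 9 that rose more than 4-fold. The bottom group (under 1.14 TPM) held 96 and 214. The second lowest group held 131 and 80, and the second highest 122 and 18, so steep falls were fewest in the top group. In the top group 31% of genes fell and 26.8% rose, against 6.8% and 15% in the bottom group. In 3580 of the 3589 genes that fell, both dTAG-13 libraries lay below both DMSO libraries, and in 4017 of the 4027 that rose both lay above. Called genes separate in this way almost by construction, and the share over all tested genes was not counted. List members named below for the size of their change also had to separate so. The separation of called or named genes is therefore no added evidence. A mean of at least 10 CPM in DMSO dropped to under 1 CPM in 11 genes, and 0 genes went the other way. The most abundant genes that fell more than 8-fold included Nip7, Cops7a, Ebna1bp2 and Trmt112, described below by function, and Itpa, the enzyme that clears inosine triphosphate from the nucleotide pool, at 117 and 114 CPM in DMSO and 9.97 and 10 CPM in dTAG-13 (−3.53 ± 0.1).

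**Figure D2:**
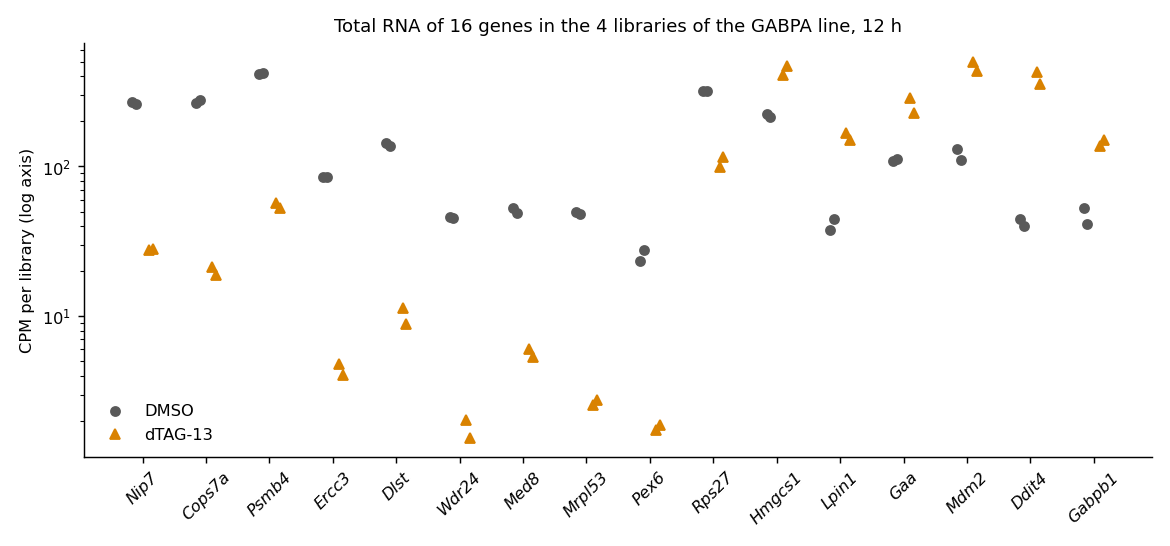
CPM on a log axis in each of the 4 libraries (DMSO circles, dTAG-13 triangles) for genes described in the text. Examples are Nip7 at 27.7 and 28.1 CPM in dTAG-13 against 271 and 262 CPM in DMSO, and Ddit4 at 429 and 354 CPM against 44.8 and 40.2 CPM. List members named for the size of their change had to have dTAG-13 libraries on 1 side of both DMSO libraries. That separation is therefore no added evidence.

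The response was then ordered by function with 78 gene lists. Since list members are mostly abundant genes, the 31% that fell in the top group by level is a closer background for many lists than the 21.9% of all tested genes. In 44 lists at least 1 member fell more than 4-fold, and in 35 of these 44 the list's median lay between −0.25 and 0.25. Over all tested genes 2.51% fell that far and the median was 0.06. How many lists of these sizes would hold such a gene at that share was not worked out. The count of 44 is therefore not a result about the lists. In some lists of multi-subunit complexes, such as the proteasome and the exocyst, a few members fell steeply beside a median near 0.

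TFIIH, which opens promoter DNA for RNA polymerase II and serves in nucleotide excision repair, had 1 steep fall beside smaller ones: 7 of 10 tested fell and 1 rose (median −0.35). Its translocase subunit Ercc3 was at 84.9 and 85.7 CPM in DMSO and 4.83 and 4.07 CPM in dTAG-13 (−4.26 ± 0.098, adjusted p = 1.12e-14). The next was Ccnh, the cyclin of its kinase module (−1.05 ± 0.12), and the kinase Cdk7 fell by less (−0.59 ± 0.086). Gtf2h5, the smallest subunit, rose by 0.22, a call lost with the 4 libraries fitted alone (adjusted p = 0.098), with no low-count filter (0.104), and without DMSO replicate 2 (0.188) or dTAG-13 replicate 2 (0.107). Of Mediator, the complex that links activators with the polymerase, 15 of 32 tested fell and 6 rose (2 rose without DMSO replicate 1, 3 without dTAG-13 replicate 1). Med8 of the head module was at 52.7 and 49.2 CPM in DMSO and 6.07 and 5.31 CPM in dTAG-13 (−3.16 ± 0.11, adjusted p = 7.88e-13), and Med10 and Med14 of the middle and scaffold fell (−1.80 ± 0.098 and −1.30 ± 0.11). Med13, a subunit of the kinase module, rose by 0.55.

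Among the subunits of RNA polymerases I, II and III, 17 of 29 tested fell and 6 rose, with a median of −0.34. Polr2h, a subunit shared by the 3 polymerases, was at 67.6 and 64.8 CPM in DMSO and 22.7 and 21.3 CPM in dTAG-13 (−1.59 ± 0.097), while Polr2b, the second largest subunit of polymerase II, was at 182 and 177 CPM in DMSO and 269 and 277 CPM in dTAG-13 (0.61 ± 0.063). Polr2h and Polr2b thus moved in opposite directions. Of the general factors TFIIA, TFIIB, TFIID, TFIIE and TFIIF, 6 of 21 tested fell and 5 rose (3 rose without DMSO replicate 2), led by the TFIID subunit Taf12 (−1.67 ± 0.12). For pausing and elongation factors, 9 of 38 tested fell and 7 rose (8 and 10 with an average log2 CPM of 3 or more, and 4 risen without DMSO replicate 2 or dTAG-13 replicate 1). Ctr9, the scaffold of the PAF1 complex, was at 79 and 77.7 CPM in DMSO and 16.2 and 15.4 CPM in dTAG-13 (−2.31 ± 0.083), and Eaf1, a partner of ELL, was at 116 and 119 CPM in DMSO and 28.2 and 25.2 CPM in dTAG-13 (−2.13 ± 0.077).

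In RNA maturation the spliceosome core moved more broadly: 32 of 58 tested fell and 9 rose, with a median of −0.24. Cwc15, of the active spliceosome, was at 67.8 and 60.1 CPM in DMSO and 10.2 and 9.91 CPM in dTAG-13 (−2.67 ± 0.096, adjusted p = 1.01e-12). Sf3b6, which sits at the branch point, fell by 1.91 and Snrpb, an Sm core protein, by 1.66 on the log2 scale. Lsm4, of the ring on U6 snRNA, rose in the same libraries (0.90 ± 0.1). Of the RNA exosome and its cofactors, 7 of 19 tested fell and 3 rose (1 rose without DMSO replicate 2 or dTAG-13 replicate 2): Exosc3 of the cap (−5.09 ± 0.13) and Exosc4 of the ring, at 50.4 and 55.3 CPM in DMSO and 7.49 and 7.13 CPM in dTAG-13 (−2.85 ± 0.13), fell by far more than Exosc5 (−0.43 ± 0.08). In cleavage and polyadenylation, 7 of 20 tested fell and 3 rose, with Cstf2 at −1.36 ± 0.084 and Nudt21, a regulator of poly(A) site choice, at −0.88 ± 0.06. Of Integrator, which ends transcription near starts and processes small nuclear RNAs, 4 of 17 tested fell and 1 rose (0 rose without DMSO replicate 2). Its catalytic subunit gene Ints11 was at 93.3 and 98.8 CPM in DMSO and 47.8 and 52.7 CPM in dTAG-13 (−0.94 ± 0.073).

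Of the 78 lists, the factors that build the large ribosomal subunit had the highest share of members that fell, 70.4%. Of these factors, 38 of 54 tested fell and 3 rose (median −0.43), and 7 of them fell more than 4-fold. Nip7, which acts in late nucleolar steps (ENSMUSG00000031917.13, chromosome 8, 107783509 to 107787563 in mm39), stood at 271 and 262 CPM in DMSO and 27.7 and 28.1 CPM in dTAG-13 (−3.26 ± 0.068, adjusted p = 4.72e-15). Ebna1bp2, a nucleolar scaffold of early large-subunit particles (at chromosome 4, 118477996 to 118484973), stood at 169 and 164 CPM in DMSO and 13.6 and 14 CPM in dTAG-13 (−3.59 ± 0.082, adjusted p = 1.12e-14). Rpf1 was at 74.9 and 62.3 CPM in DMSO and 3.72 and 4.72 CPM in dTAG-13 (−4.02 ± 0.13), and Rpf2, which brings in the 5S particle, was at 50.9 and 44.3 CPM in DMSO and 6.38 and 8.02 CPM in dTAG-13 (−2.72 ± 0.12). Not all factors fell: Nop53 and Mak16 rose by 0.40 and 0.46.

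For the small subunit, 38 of 61 tested fell and 5 rose (3 rose without DMSO replicate 1 or dTAG-13 replicate 1, 2 without DMSO replicate 2) (median −0.32). Wdr3, of the early processome, was at 118 and 121 CPM in DMSO and 8.42 and 7.02 CPM in dTAG-13 (−3.95 ± 0.097, adjusted p = 1.62e-14). Trmt112, which activates several methyltransferases including a methyltransferase of ribosomal RNA, was at 93.3 and 94.6 CPM in DMSO and 10.5 and 10.8 CPM in dTAG-13 (−3.14 ± 0.11). Utp20, a large scaffold protein of the processome, rose (0.70 ± 0.064). Of small nucleolar ribonucleoproteins and their assembly factors, 11 of 21 tested fell and 0 rose by edgeR, and 0 rose at an unadjusted p under 0.05 or by DESeq2. Shq1, the chaperone of dyskerin, was at 68.5 and 67.3 CPM in DMSO and 3.72 and 2.59 CPM in dTAG-13 (−4.43 ± 0.13, adjusted p = 1.56e-13), and the core protein Snu13 fell by 1.46 on the log2 scale.

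The structural proteins of the cytosolic ribosome had more rises than falls, unlike its assembly factors. Of their genes, 15 of 82 tested fell and 42 rose, with a median of 0.18, and their summed level was 261355 and 267760 TPM in DMSO and 284187 and 281053 TPM in dTAG-13. Within that, single members fell: Rps27 was at 317 and 319 CPM in DMSO and 99.8 and 116 CPM in dTAG-13 (−1.56 ± 0.096, adjusted p = 7.53e-10), Rpl37 at 651 and 687 CPM in DMSO and 241 and 252 CPM in dTAG-13 (−1.44 ± 0.094) and Rps14 at 1564 and 1570 CPM in DMSO and 768 and 744 CPM in dTAG-13 (−1.05 ± 0.07). These 3 genes were picked as called members whose groups lay apart, so a fall beyond the replicate difference is no added evidence. Rpsa rose by 0.69 ± 0.045. These genes share reads with processed pseudogenes, and how the authors' counting split such reads is not stated in the sources used here. They also made up most of the largest shifts in TPM. Eef1a1, the elongation factor that carries tRNAs to the ribosome, had the largest absolute rise in TPM, at 8763 and 8911 TPM in DMSO and 11407 and 11749 TPM in dTAG-13, and Rps14 the largest absolute fall, at 5819 and 5799 TPM in DMSO and 2736 and 2665 TPM in dTAG-13.

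Of cytosolic tRNA synthetases, 13 of 23 tested fell and 0 rose by edgeR, with 0 risen at an unadjusted p under 0.05 or by DESeq2 and 2 risen with an average log2 CPM of 3 or more: Rars was at 196 and 184 CPM in DMSO and 43 and 42.6 CPM in dTAG-13 (−2.15 ± 0.068), Kars at 591 and 606 CPM in DMSO and 200 and 209 CPM in dTAG-13 (−1.55 ± 0.054) and Hars at −1.48 ± 0.071. Of translation initiation factors, 20 of 45 tested fell and 4 rose. Eif2b2, a subunit of the exchange factor for eIF2, was at 92.7 and 91.9 CPM in DMSO and 25.2 and 24.4 CPM in dTAG-13 (−1.90 ± 0.079), and Eif3i and Eif3m of the eIF3 scaffold fell by 1.48 and 1.15 on the log2 scale. Of tRNA modification and processing genes, 29 of 71 tested fell and 11 rose (7 without any 1 of the 4 libraries). Kti12, which works with the Elongator complex on wobble uridines (at chromosome 4, 108704982 to 108706610 of mm39), stood at 38.7 and 42.2 CPM in DMSO and 1.61 and 1.42 CPM in dTAG-13 (−4.74 ± 0.14, adjusted p = 8.36e-14), and Tprkb, of the KEOPS complex, was at 32.7 and 35.3 CPM in DMSO and 4.15 and 6.13 CPM in dTAG-13 (−2.72 ± 0.15).

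Genes that serve the mitochondrion are given from its protein synthesis and import to the respiratory chain. Of mitochondrial ribosomal proteins, 39 of 83 tested fell and 7 rose (4 rose without DMSO replicate 1, 3 without DMSO replicate 2 or dTAG-13 replicate 2) (median −0.17). Mrpl53 lies at mm39 chromosome 6, 83086021 to 83086920, and its level was 49.9 and 48.5 CPM in DMSO and 2.54 and 2.77 CPM in dTAG-13 (−4.21 ± 0.13, adjusted p = 1.94e-13) and Mrpl27 at 29.7 and 29.6 CPM in DMSO and 2.66 and 1.83 CPM in dTAG-13 (−3.72 ± 0.15). Mrps6 rose instead, by 0.59. Of genes for transcription, replication and RNA handling of mitochondrial DNA, 19 of 34 tested fell and 4 rose (2 rose without DMSO replicate 2 or dTAG-13 replicate 2) (median −0.41). Twnk, the replicative helicase of mitochondrial DNA, was at 72.9 and 68.9 CPM in DMSO and 14.9 and 15.2 CPM in dTAG-13 (−2.24 ± 0.087). Of mitochondrial tRNA synthetases and translation factors, 11 of 31 tested fell and 1 rose (0 rose without DMSO replicate 1 or dTAG-13 replicate 2), with Rars2 at −2.67 ± 0.1 and the elongation factor gene Tufm at −1.15 ± 0.073. Of the import machinery, 19 of 42 tested fell and 5 rose: Timm23, the channel of the inner membrane, was at 229 and 221 CPM in DMSO and 30.2 and 32.7 CPM in dTAG-13 (−2.84 ± 0.068, adjusted p = 1.58e-14), and Mtx2, of the outer membrane, at 43.6 and 37.1 CPM in DMSO and 4.58 and 5.01 CPM in dTAG-13 (−3.07 ± 0.12).

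Of nuclear-encoded subunits of respiratory complex I, 9 of 37 tested fell and 15 rose, with a median of 0.15 (9 risen without DMSO replicate 1). Without DMSO replicate 2 the counts were 8 lower and 6 higher. Ndufa13 was at 124 and 119 CPM in DMSO and 29.8 and 25.5 CPM in dTAG-13 (−2.14 ± 0.11) and Ndufs3 at 71.9 and 69.5 CPM in DMSO and 22.5 and 22.1 CPM in dTAG-13 (−1.66 ± 0.084), whereas Ndufb6 rose by 0.54 ± 0.097. Of complexes II to V, 13 of 44 tested fell and 12 rose and 0 fell more than 2-fold (7 risen without DMSO replicate 1, 6 without DMSO replicate 2). With genes limited to an average log2 CPM of at least 3 the counts were 13 lower and 20 higher. The factors that assemble the complexes fell more: 21 of 51 tested fell and 8 rose. Cox16, for complex IV, was at 13.5 and 13.1 CPM in DMSO and 1.98 and 2.3 CPM in dTAG-13 (−2.63 ± 0.17), and Ndufaf1, for complex I, at 24.8 and 21.8 CPM in DMSO and 3.9 and 5.07 CPM in dTAG-13 (−2.37 ± 0.13). Of the protein genes of the mitochondrial genome itself, 0 of 13 tested fell and 5 rose by edgeR, with 0 fallen at an unadjusted p under 0.05 or by DESeq2. These counts changed when single libraries were left out. Among those risen was mt-Co1, at 3825 and 3780 CPM in DMSO and 4850 and 5137 CPM in dTAG-13 (0.39 ± 0.11). The summed level of the 13 genes was 33401 and 26974 TPM in DMSO and 32692 and 39946 TPM in dTAG-13, so the groups overlapped. In the tricarboxylic acid cycle, 6 of 30 tested fell and 11 rose (7 without either DMSO replicate 2 or dTAG-13 replicate 2). The steep falls were in enzymes of consecutive oxidative steps: Idh3b, of the isocitrate dehydrogenase, was at 153 and 147 CPM in DMSO and 18.8 and 19.9 CPM in dTAG-13 (−2.95 ± 0.072, adjusted p = 1.61e-14), and Dlst, of the 2-oxoglutarate dehydrogenase, at 144 and 138 CPM in DMSO and 11.4 and 8.84 CPM in dTAG-13 (−3.80 ± 0.095, adjusted p = 1.69e-14). Pdk4, an inhibitor of pyruvate entry, rose (1.63 ± 0.15). Nfs1, the cysteine desulfurase that supplies sulfur for iron-sulfur clusters, was at 43.9 and 40.1 CPM in DMSO and 1.92 and 2.83 CPM in dTAG-13 (−4.13 ± 0.14, adjusted p = 4.92e-13), in a list of cluster and heme genes in which 12 of 40 tested fell and 10 rose (9 and 10 without DMSO replicate 2).

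**Figure D3:**
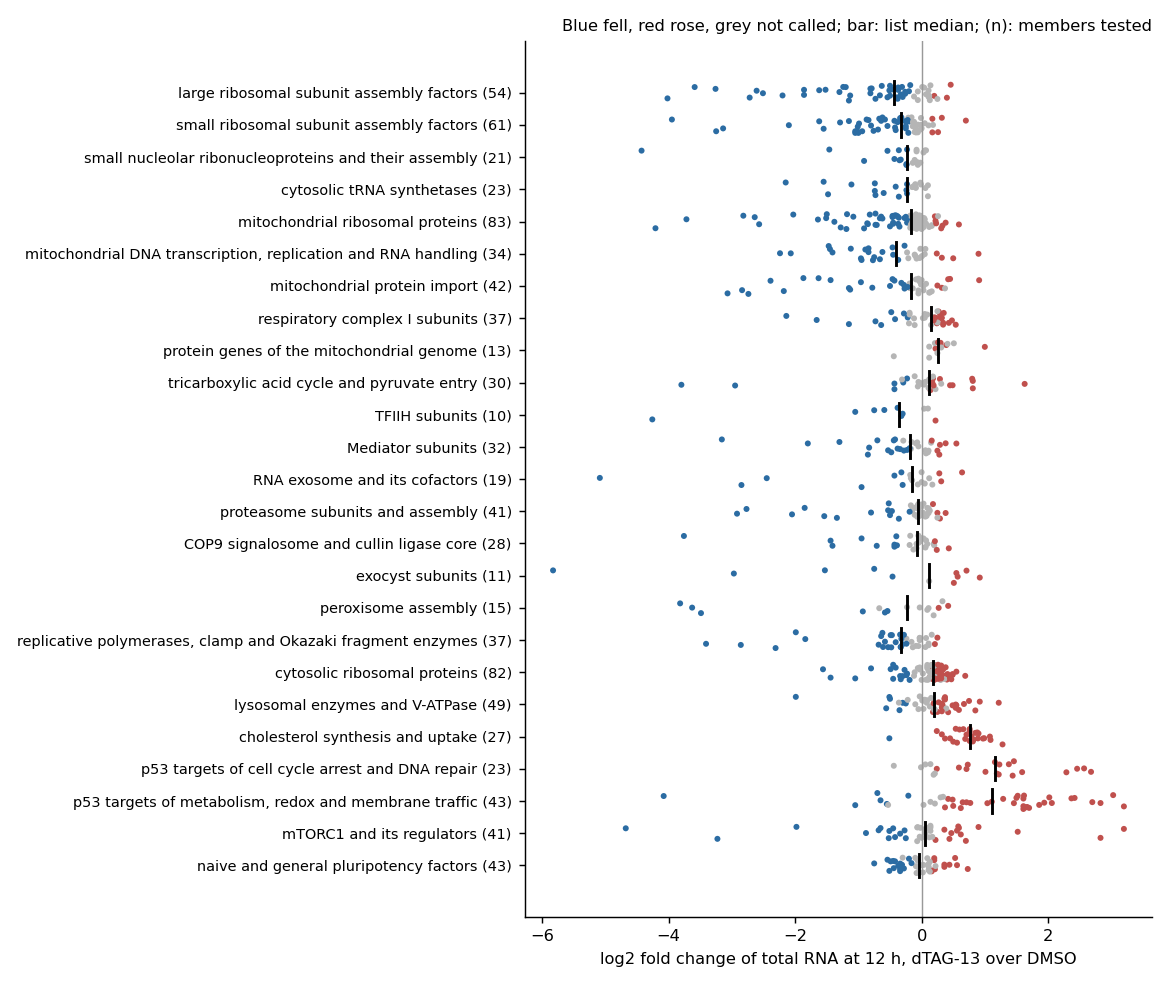
Log2 fold change of total RNA at 12 h for each tested member of selected gene lists (blue fell, red rose, grey not called, black bar the median of the list, number of tested members in brackets). Single members reached −3 to −6 in lists whose median lay between −0.25 and 0.25, such as the exosome (−0.15) and the exocyst (0.12), while cholesterol synthesis genes (0.76) lay almost all to the right of 0.

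Lipid genes moved up together. Of genes for cholesterol synthesis and uptake, 1 of 27 tested fell and 26 rose, with a median of 0.76 against 0.06 over all tested genes. Hmgcs1, an early synthase of the pathway, was at 225 and 214 CPM in DMSO and 405 and 467 CPM in dTAG-13 (0.99 ± 0.08, adjusted p = 2.43e-08). The member that fell was Ebp, a sterol isomerase (−0.51 ± 0.084). Scap, the escort protein of the SREBP factors, rose (0.97 ± 0.089). Of fatty acid synthesis and desaturation genes, 2 of 22 tested fell and 13 rose (median 0.36), with Fasn at 634 and 788 CPM in DMSO and 1068 and 1167 CPM in dTAG-13 (0.65 ± 0.089) and the phosphatidate phosphatase Lpin1 at 37.8 and 44.9 CPM in DMSO and 168 and 150 CPM in dTAG-13 (1.94 ± 0.09, adjusted p = 2.06e-11). Agpat1, an acyltransferase of phosphatidate synthesis, fell instead (−1.89 ± 0.086).

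Nucleotide synthesis was split. Of pyrimidine and deoxynucleotide genes, 9 of 19 tested fell and 5 rose (3 rose without DMSO replicate 1 or 2 or dTAG-13 replicate 1, 2 without dTAG-13 replicate 2): Umps, which makes uridine monophosphate, was at 187 and 173 CPM in DMSO and 27.5 and 26.2 CPM in dTAG-13 (−2.74 ± 0.078, adjusted p = 7.63e-14), and Tyms, the thymidylate synthase, was at 83.5 and 85.1 CPM in DMSO and 21.7 and 21.2 CPM in dTAG-13 (−1.98 ± 0.078). Cad, which starts the same pathway, rose (0.94 ± 0.073). Of purine genes, 7 of 17 tested fell and 2 rose, with Adsl at −1.86 ± 0.07 and Ak1 at 1.60 ± 0.073. In the pentose phosphate and antioxidant list, 4 of 29 tested fell and 12 rose. The mitochondrial thioredoxin gene Txn2 and the peroxiredoxin gene Prdx5 fell (−1.78 ± 0.08 and −1.70 ± 0.12), whereas Gss, the glutathione synthetase, rose (1.05 ± 0.092). In glycolysis and glucose uptake, 10 of 26 tested fell and 9 rose (4 without DMSO replicate 1): Slc2a1, the glucose transporter GLUT1, fell (−0.53 ± 0.066), and Txnip, which lowers glucose uptake, was at 144 and 134 CPM in DMSO and 487 and 435 CPM in dTAG-13 (1.73 ± 0.069, adjusted p = 2.97e-12).

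In protein turnover, too, single subunits fell steeply. Of proteasome subunits and assembly factors, 13 of 41 tested fell and 4 rose (2 rose without DMSO replicate 2), with a median of −0.05. Psmb4, a subunit of the catalytic ring, was at 415 and 420 CPM in DMSO and 57.4 and 53 CPM in dTAG-13 (−2.92 ± 0.073, adjusted p = 1.69e-14), and Pomp, the chaperone that builds that ring, at 147 and 138 CPM in DMSO and 19.6 and 22.2 CPM in dTAG-13 (−2.77 ± 0.09). Psmd6, of the regulatory lid, was at 139 and 126 CPM in DMSO and 31 and 32.8 CPM in dTAG-13 (−2.05 ± 0.074), while Psmb3, another ring subunit, rose by 0.25. Nfe2l1, the factor that raises proteasome genes when proteasomes are inhibited, was at −0.08 and was not called. Of the COP9 signalosome and the cullin ligase core, 9 of 28 tested fell and 3 rose (5 rose without dTAG-13 replicate 1): Cops7a was at 266 and 279 CPM in DMSO and 21.2 and 19 CPM in dTAG-13 (−3.76 ± 0.077, adjusted p = 4.72e-15) and Gps1 at −1.44 ± 0.066. Of heat shock chaperones, 5 of 20 tested fell and 9 rose; Hspa8, the constitutive Hsp70, fell (−0.41 ± 0.052) and Hsp90ab1 rose (0.22 ± 0.041). Of targets of the integrated stress response, 13 of 35 tested fell and 5 rose, with Asns at −0.48 ± 0.056 and Sesn2 at 1.52 ± 0.065. Of the unfolded protein response of the endoplasmic reticulum, 4 of 27 tested fell and 9 rose, and 0 changed more than 2-fold.

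Among organelles, lysosomal enzymes and V-ATPase subunits rose more often than they fell: 7 of 49 tested fell and 23 rose (median 0.19). Gaa, the lysosomal glucosidase, was at 109 and 112 CPM in DMSO and 286 and 228 CPM in dTAG-13 (1.22 ± 0.085, adjusted p = 3.42e-09), and Ctsd, a lysosomal protease, at 280 and 268 CPM in DMSO and 533 and 456 CPM in dTAG-13 (0.85 ± 0.068). Of the autophagy machinery, 6 of 39 tested fell and 14 rose. Atg7, which activates the ubiquitin-like proteins of the pathway, rose (1.03 ± 0.093), and Becn1 and Pik3r4, of the lipid kinase complex that starts it, fell (−1.46 ± 0.079 and −1.77 ± 0.083). Of peroxisome assembly genes, 6 of 15 tested fell and 2 rose (1 rose without DMSO replicate 1 or dTAG-13 replicate 1). Pex6, one of a pair of ATPases that recycle the import receptor, was at 23.4 and 27.8 CPM in DMSO and 1.73 and 1.89 CPM in dTAG-13 (−3.82 ± 0.19, adjusted p = 4.3e-11). The import receptor Pex5 fell by 0.58 on the log2 scale. Of the list for the exocyst, which tethers vesicles to the plasma membrane, 5 of 11 tested fell and 5 rose. Of its members, 2 fell more than 4-fold (lowest −5.83). Exoc1, which fell by less, was at 33.5 and 31.6 CPM in DMSO and 10.9 and 11.6 CPM in dTAG-13 (−1.53 ± 0.1). Exoc4 was at 173 and 166 CPM in DMSO and 282 and 272 CPM in dTAG-13 (0.71 ± 0.063). Of N-glycan and GPI anchor genes, 24 of 71 tested fell and 17 rose (20 and 21 with an average log2 CPM of 3 or more). Mogs, the glucosidase that starts glycan trimming, was at 79 and 86 CPM in DMSO and 4.89 and 4.6 CPM in dTAG-13 (−4.12 ± 0.14, adjusted p = 3.71e-13). Tsg101, of the ESCRT-I complex, was at 42 and 37.7 CPM in DMSO and 5.76 and 7.08 CPM in dTAG-13 (−2.63 ± 0.11), and Chmp2a, of ESCRT-III, at 46.3 and 46.8 CPM in DMSO and 129 and 121 CPM in dTAG-13 (1.43 ± 0.078), so 2 steps of the same sorting pathway moved in opposite directions.

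Genes of DNA replication fell, and few rose. In origin licensing and the replicative helicase, 18 of 35 tested fell and 0 rose by edgeR (1 rose at an unadjusted p under 0.05, 0 by DESeq2), with Orc3, of the origin recognition complex, at 53.6 and 49.9 CPM in DMSO and 12.7 and 15.3 CPM in dTAG-13 (−1.88 ± 0.1) and Mcm3, of the helicase ring, at −0.89 ± 0.052. For polymerases, clamp and Okazaki fragment enzymes, 22 of 37 tested fell and 2 rose (0 rose without DMSO replicate 1 or dTAG-13 replicate 2). Rfc3, of the clamp loader, was at 45.1 and 43.7 CPM in DMSO and 9.17 and 8.73 CPM in dTAG-13 (−2.31 ± 0.098), Rnaseh2b, of the enzyme that removes ribonucleotides, at 29.7 and 29.3 CPM in DMSO and 3.04 and 2.54 CPM in dTAG-13 (−3.41 ± 0.13, adjusted p = 1.63e-12), and Pcna, the clamp, at −0.68 ± 0.061. Of genes of G2 and mitosis, 21 of 80 tested fell and 11 rose, a share of falls below that of the top group by level. E2f4, a repressive E2F, was at 339 and 363 CPM in DMSO and 52.8 and 51.3 CPM in dTAG-13 (−2.75 ± 0.065, adjusted p = 1.5e-14), in a list of G1/S regulators in which 13 of 33 tested fell and 6 rose. In Fanconi anaemia and homologous recombination, 21 of 58 tested fell and 10 rose (5 without DMSO replicate 1), and in excision and mismatch repair 14 of 41 tested fell and 10 rose (12 and 15 with an average log2 CPM of 3 or more). Ogg1, the glycosylase for oxidised guanine, was at 41.3 and 41 CPM in DMSO and 7.25 and 8.79 CPM in dTAG-13 (−2.36 ± 0.11). Of telomerase and shelterin genes, 10 of 18 tested fell and 4 rose (2 rose without DMSO replicate 1 or dTAG-13 replicate 2): Tinf2, of shelterin, was at 70.9 and 70.3 CPM in DMSO and 15.1 and 17.6 CPM in dTAG-13 (−2.11 ± 0.087), Tert, the catalytic subunit of telomerase, at −1.08 ± 0.11, and Ctc1 rose (0.97 ± 0.06).

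Targets of p53, the factor that answers to DNA damage and ribosome stress, rose by large amounts. Of targets in cell cycle arrest and DNA repair, 0 of 23 tested fell and 17 rose by edgeR (1 fell at an unadjusted p under 0.05, 0 by DESeq2), with a median of 1.16; of those in metabolism, redox and membrane traffic, 6 of 43 tested fell and 31 rose, with a median of 1.11. Both lists were written with the rise of p53 targets in these libraries already known, so their direction is no independent evidence. Mdm2, the ligase for p53, was at 130 and 111 CPM in DMSO and 502 and 432 CPM in dTAG-13 (1.96 ± 0.085, adjusted p = 8.35e-12), Cdkn1a, the inhibitor p21, at 1.19 ± 0.074 and Plk2 at 58.6 and 48.3 CPM in DMSO and 378 and 308 CPM in dTAG-13 (2.68 ± 0.098). Apoptosis genes were split, as 13 of 45 tested fell and 18 rose (8 fell without either DMSO replicate 2 or dTAG-13 replicate 1). Apaf1, the core of the apoptosome, was at 42.2 and 36.9 CPM in DMSO and 150 and 151 CPM in dTAG-13 (1.93 ± 0.084), and Diablo, an antagonist of apoptosis inhibitors, fell (−0.97 ± 0.086). Prkab1, a subunit of the kinase AMPK that is also listed as a p53 target, went against its list, at 79.2 and 76.1 CPM in DMSO and 4.96 and 4.25 CPM in dTAG-13 (−4.08 ± 0.11, adjusted p = 3.47e-14).

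Of regulators of mTORC1, 13 of 41 tested fell (31.7%) and 13 rose (31.7%), with a median of 0.06. These shares lay near the 31% and 26.8% of the top group by level, and the median was that of all tested genes. More than 4-fold, 2 members fell and 2 rose. Wdr24, of the GATOR2 complex that keeps mTORC1 responsive to amino acids, was at 46.1 and 45.6 CPM in DMSO and 2.04 and 1.53 CPM in dTAG-13 (−4.68 ± 0.14, adjusted p = 1.21e-13). Itfg2, of the KICSTOR complex that places the GATOR1 inhibitor on lysosomes, fell (−1.98 ± 0.11). Ddit4, an inhibitor of mTORC1 that is also a p53 target, was at 44.8 and 40.2 CPM in DMSO and 429 and 354 CPM in dTAG-13 (3.20 ± 0.12, adjusted p = 1.21e-12), and its paralog Ddit4l was at 10.9 and 9.93 CPM in DMSO and 78.2 and 69.6 CPM in dTAG-13 (2.83 ± 0.12). Of immediate early and AP-1 genes, 3 of 31 tested fell and 14 rose (1 fell without DMSO replicate 2, 6 without dTAG-13 replicate 1), with Jun at 14 and 12.9 CPM in DMSO and 42.7 and 30.1 CPM in dTAG-13 (1.43 ± 0.14) and Myc at 56.1 and 63.9 CPM in DMSO and 38.2 and 31.8 CPM in dTAG-13 (−0.78 ± 0.099). Of FGF and ERK feedback genes, 2 of 21 tested fell and 7 rose (0 fell without DMSO replicate 1, 1 without DMSO replicate 2 or dTAG-13 replicate 2), in cells held in a MEK inhibitor throughout. Of the other ETS factors, 6 of 17 tested fell and 5 rose (2 rose without DMSO replicate 1 or dTAG-13 replicate 1, 3 without DMSO replicate 2). The steepest was Etv3, at 27.3 and 25.5 CPM in DMSO and 1.05 and 0.708 CPM in dTAG-13 (−4.90 ± 0.2, adjusted p = 5.51e-12), whose promoter window held no CCGGAAG. Elf2, which binds a like motif, fell by 0.89 and Elk4 by 1.26 on the log2 scale, and Elf1 rose by 0.59.

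Cell identity genes were read next. Changes of more than 2-fold were few in the lists of pluripotency, formative and primed, and 2-cell-like genes. Of naive and general pluripotency factors, 15 of 43 tested fell and 10 rose, and 0 moved more than 2-fold; with an average log2 CPM of 3 or more the counts were 13 lower and 16 higher. Pou5f1 was at −0.01 and was not called. Socs3, a feedback target of LIF signalling, rose (0.73 ± 0.068), and Foxd3 fell (−0.75 ± 0.12). Of formative and primed genes, 9 of 22 tested fell and 3 rose (5 fell without DMSO replicate 1 or dTAG-13 replicate 2, and 1 rose without dTAG-13 replicate 1), with Dnmt3l at 743 and 758 CPM in DMSO and 509 and 535 CPM in dTAG-13 (−0.52 ± 0.054). Of lineage markers, 6 of 26 tested fell and 6 rose (3 fell without dTAG-13 replicate 2), and 3 in each direction moved more than 2-fold: the basement membrane collagens Col4a1 and Col4a2 rose (1.01 ± 0.077 and 1.40 ± 0.12), and Eomes fell (−1.01 ± 0.1). Over all 16396 tested genes, 1280 fell and 1125 rose more than 2-fold. With only 3 of 26 lineage markers in each direction, a difference from that share was not tested. Of the formative and primed genes, 1 fell more than 4-fold. Of 2-cell-like genes 0 of 12 tested were called by edgeR, and 0 at an unadjusted p under 0.05 or by DESeq2. Nodal and its antagonist Lefty2 moved in opposite directions, at 106 and 113 CPM in DMSO and 213 and 186 CPM in dTAG-13 (0.87 ± 0.072) and 219 and 240 CPM in DMSO and 82.1 and 95.7 CPM in dTAG-13 (−1.37 ± 0.082). Of Polycomb, DNA methylation and H3K9 methylation genes, 18 of 54 tested fell and 15 rose (8 and 9 rose without DMSO replicate 2 or dTAG-13 replicate 2; 15 fell and 16 rose with an average log2 CPM of 3 or more), with Ring1, a ubiquitin ligase of Polycomb complex 1, at 23.1 and 26.6 CPM in DMSO and 5.33 and 3.42 CPM in dTAG-13 (−2.51 ± 0.17). Of imprinted genes, 7 of 28 tested fell and 11 rose; Igf2r rose (1.11 ± 0.092) and Impact fell (−1.22 ± 0.11).

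Falls were often shared by genes that start next to each other. Among tested genes there were 861 head-to-head pairs, that is, genes on opposite strands whose starts lay within 1000 bases and whose bodies did not overlap. In 121 pairs both genes fell, in 238 pairs 1 gene fell and in 502 neither did. Of pair members overall 27.9% fell. In 40 pairs at least 1 gene fell more than 4-fold: in 31 of these both genes fell, and in 13 both fell more than 4-fold. Counting each pair from both sides, so that a pair can enter more than once, the partner fell in 50.4% of cases when a gene had fallen by any amount, and in 12.5% when it had risen. Cog8, of the Golgi tethering complex, starts 188 bases from Nip7 and was at 91.9 and 89.2 CPM in DMSO and 10.6 and 11.4 CPM in dTAG-13 (−3.04 ± 0.088). Fbxl6 and the riboflavin transporter gene Slc52a2, 86 bases apart, fell by 3.41 and 3.26 on the log2 scale. Krit1, a gene of endothelial junctions, was at 37 and 35 CPM in DMSO and 4.96 and 5.42 CPM in dTAG-13 (−2.79 ± 0.13), and Ankib1, 259 bases from it, at 14.9 and 16.3 CPM in DMSO and 2.17 and 1.83 CPM in dTAG-13 (−2.97 ± 0.15). Pair distances are from the deposited gene positions (mm39), whereas promoter windows use RefSeq starts (GRCm38.p6), and the starts of a gene can differ between them. The short windows of Krit1 and Ankib1, printed above, do not overlap. The promoter windows searched were longer, overlapped each other and held 2 matches each. By the printed positions, each searched window also took in the match printed for the other gene. The matches are therefore shared and are not separate evidence for each gene.

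**Figure D4:**
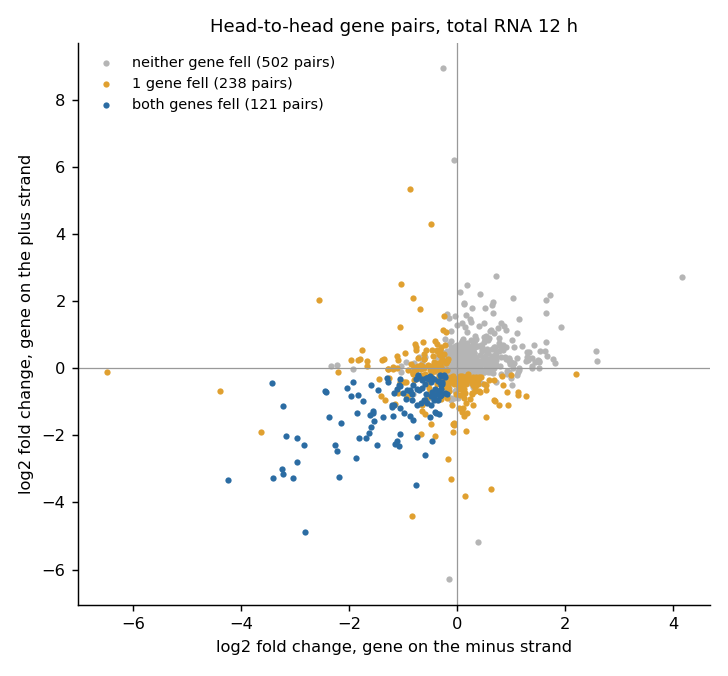
Log2 fold change of the gene on the plus strand against that of the gene on the minus strand for 861 head-to-head pairs in total RNA at 12 h (blue both fell, orange 1 fell, grey neither). The 121 pairs in which both fell fill the lower left, and few pairs with 1 steep fall lie near 0 on the other axis.

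New RNA was compared with total RNA gene by gene. At 12 h, 18.3% of the 15887 genes tested in SLAM-seq fell and 12.3% rose, and at 1 h 1.72% fell. Of the 411 genes whose total RNA fell more than 4-fold, 314 could be tested in new RNA: 260 fell and 2 rose at 12 h (median −2.42), and 80 fell and 0 rose at 1 h (median −0.84). Of the 234 that were not called at 1 h, 203 had a change below 0. Of all genes whose total RNA fell, 51.7% also fell in new RNA at 12 h (1668 of 3225). Of genes whose total RNA rose, 34.5% also rose in new RNA at 12 h (1184 of 3427), and 3 did so at 1 h. Of 128 tested genes with rises over 4-fold in total RNA, 86 rose in new RNA at 12 h and 0 at 1 h. Read from the other side, total RNA had fallen for 68.2% of the genes that fell in new RNA at 12 h (1668 of 2445 tested) and risen for 71.1% of those that rose (1184 of 1665). At 1 h, 253 of the 273 genes that fell in new RNA at 1 h were tested in total RNA, and 228 of them (90.1%) had fallen there at 12 h, by a median of −1.47. Both SLAM-seq times had fewer counts than RNA-seq, 936622 to 1141614 at 1 h and 1777064 to 4248509 at 12 h, so a gene not called in new RNA may have been out of reach at that depth.

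By function, new RNA at 12 h fell for 38 of 54 large-subunit assembly factors, 12 of them already at 1 h, and for 28 of 41 proteasome genes; in total RNA 13 of the 41 fell. Chaperonin and prefoldin genes, which fold actin and tubulin, fell in new RNA in 11 of 16 cases (median −0.84) and in total RNA in 5 (median −0.08). Mitochondrial ribosomal proteins fell in new RNA in 49 of 82 cases. Cholesterol genes rose in 15 of 26 at 12 h and 0 at 1 h. Dlst changed in new RNA by −3.51 at 12 h (adjusted p = 4.53e-08) and −1.36 at 1 h (adjusted p = 0.0332). Hmgcs1 changed by 1.01 at 12 h (adjusted p = 2.05e-05) and 0.48 at 1 h (adjusted p = 0.178), and Mdm2 by 1.07 at 12 h (adjusted p = 8.44e-06) and −0.22 at 1 h (adjusted p = 0.707). At 1 h the fall of Dlst had thus passed the test, and the changes of Hmgcs1 and Mdm2 had not. Cytosolic ribosomal protein genes, which rose in 42 of 82 cases in total RNA, rose in 8 and fell in 13 in new RNA at 12 h. When SLAM-seq was scaled by total counts in place of TMM, the 12 h calls were 2406 lower and 2843 higher instead of 2905 and 1952, so counts of rises and falls in new RNA depend on the scaling. Without DMSO replicate 1 the 12 h calls were 1876 lower and 1075 higher, and without DMSO replicate 2 they were 2120 and 1079. Without DMSO replicate 1 or 2, or dTAG-13 replicate 1 or 2, 110, 159, 71 and 141 genes fell at 1 h.

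**Figure D5:**
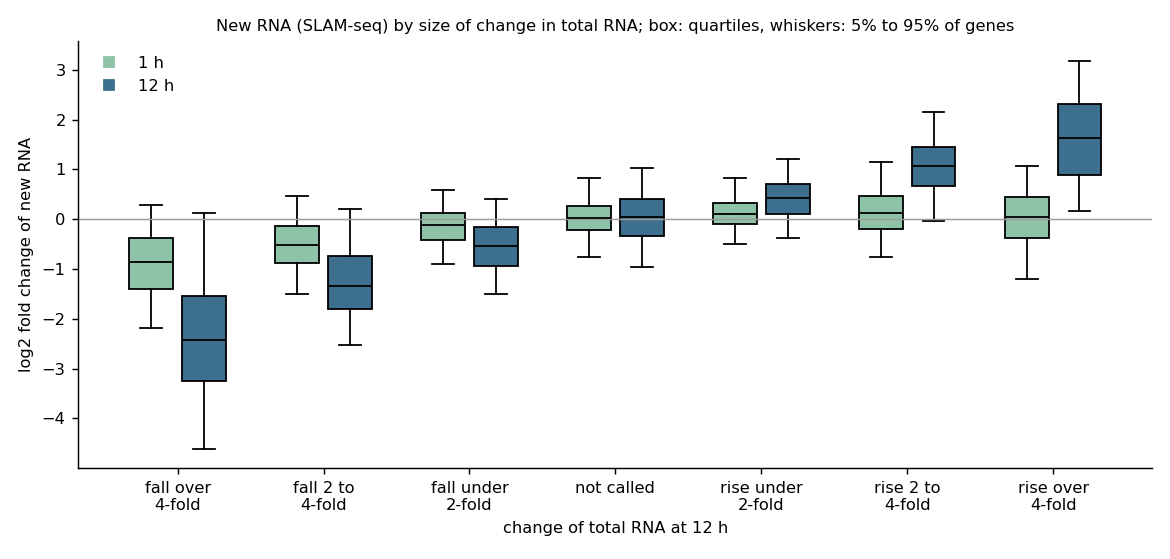
Log2 fold change of new RNA at 1 h (green) and 12 h (blue) for genes grouped by change in total RNA at 12 h (boxes quartiles with the median, whiskers 5% to 95% of genes). The median for total RNA falls over 4-fold was −0.84 at 1 h and −2.42 at 12 h, and for rises over 4-fold 0.05 and 1.63.

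The lines without GABPB1, or without GABPB1 and GABPB2, gave fewer calls and smaller changes. Their own controls were used, so these comparisons share no library with the GABPA line. In the GABPB1 line 896 genes fell and 210 rose, and in the GABPB1/GABPB2 line 1519 fell and 578 rose. The DMSO replicates of the GABPB1/GABPB2 line agreed least of the 6 groups (r = 0.9948, against 0.9956 to 0.9979 in the others). Their mismatch in counts, as chi-square per degree of freedom, was 16.1, against 3.12 to 6.56 in the others. How this bears on the calls in that line was not tested. Of the 411 genes that fell more than 4-fold after GABPA loss, 241 fell in the GABPB1 line (58.6%, median −0.58) and 324 in the GABPB1/GABPB2 line (78.8%, median −1.13). Of the 321 genes that rose more than 4-fold, 22 and 29 rose in these lines, with medians of 0.36 and 0.40. The difference itself passed the test for 25.7% of all genes against the GABPB1 line, 2174 lower and 2046 higher in the GABPA line, and for 20.7% against the GABPB1/GABPB2 line, 1754 lower and 1648 higher. Without any 1 of the 4 GABPB1 libraries, 1193 to 1252 responses were higher in the GABPA line, and without dTAG-13 replicate 1 or 2 of the GABPB1/GABPB2 line, 1089 and 1057.

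The size of the difference between lines varied from gene to gene. Ercc3 fell by 4.26 after GABPA loss and was at −0.33 ± 0.067 in the GABPB1 line and −0.86 ± 0.072 in the GABPB1/GABPB2 line; the difference from the GABPB1 line was −3.93 ± 0.12, adjusted p = 2.76e-12. Nip7 was at 103 and 106 CPM in DMSO and 82.1 and 86 CPM in dTAG-13 in the GABPB1 line (−0.31 ± 0.059) and at 103 and 100 CPM in DMSO and 63.4 and 61.2 CPM in dTAG-13 in the GABPB1/GABPB2 line (−0.71 ± 0.062). Wdr24 changed by −0.99 ± 0.095 in the GABPB1/GABPB2 line, and the GABPA response was lower by −3.69 ± 0.18, adjusted p = 1.76e-09. For large-subunit assembly factors, 31 of 54 responses were lower in the GABPA line than in the GABPB1 line and 1 was higher; against the GABPB1/GABPB2 line the counts were 30 and 1. Targets of p53 in arrest and repair rose in 4 of 23 cases in the GABPB1 line and 8 of 23 in the GABPB1/GABPB2 line, and the response was higher in the GABPA line in 14 and 13. Cholesterol genes rose in 10 of 27 cases in the GABPB1 line (median 0.25) and in 23 of 27 in the GABPB1/GABPB2 line (median 0.50), and the response was higher in the GABPA line in 16 and 6 cases and lower in 1 and 1. Hmgcs1 was at 0.16 ± 0.079 and 0.40 ± 0.08 in those lines, against 0.99 ± 0.08 in the GABPA line. The DMSO levels of the lines differed as well. Nip7 stood at 271 and 262 CPM in DMSO in the GABPA line, more than in DMSO in the other lines. Of the 411 genes that fell more than 4-fold, 285 had a lower mean DMSO level in the GABPB1 line than in the GABPA line and 274 in the GABPB1/GABPB2 line. The median log2 ratios to the GABPA line, on mean CPM plus 0.1, were −0.27 and −0.30, against −0.01 and 0.03 over all tested genes. For the 321 genes that rose more than 4-fold they were 0.30 and 0.84. The DMSO libraries of the GABPA line also entered the choice of these genes, and the part of the DMSO levels in the difference between responses was not tested. No list changed direction under the other scalings of the RNA-seq counts (DESeq2 size factors in edgeR, or total counts).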

How the data were processed

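Members and gene lists were chosen with earlier results of these data known. For RNA-seq the authors deposited expected counts and TPM per gene. The submitters' processing notes list, among others, STAR 2.7.11a, RSEM 1.3.1, cutadapt 3.5 and the genome mm39. For SLAM-seq the deposited tables, made with slamdunk per the file headers, give for each gene interval the count of converted (T-to-C) reads. How strands and overlapping genes were treated is not stated in the sources used here.

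Expected counts were rounded. All 12 RNA-seq libraries (6 groups of 2) were fitted once with edgeR 4.0.16 (R 4.3.3): TMM, filterByExpr (minimum count 10, total 15), a mean per group and the quasi-likelihood test. P-values were adjusted over 16396 genes by Benjamini-Hochberg; the 14 SLAM-seq libraries (7 groups) likewise over 15887. The standard error is the absolute log2 fold change over the square root of F. CPM were computed with edgeR from the deposited counts. The pipeline was tested on simulated data. DESeq2 1.42.0 was an alternative. Groups came from the labels.

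Genes were named by rule: the GABP subunits; per list up to 5 called members with the largest change in the commoner direction, up to 2 in the other and the 2 highest by TPM, with groups apart and an average log2 CPM of at least 1; the 10 most abundant genes with falls over 8-fold or rises over 4-fold; the 10 largest rises and falls of TPM; the 5 pairs with the largest falls; and the 5 genes with the smallest p per direction of a line difference. Not every gene the rule gives is in the text, and some results are not reported here. RefSeq promoters were matched by symbol or synonym for protein-coding genes outside chromosome 18, of which 82.2% had an entry, and a gene with several starts counted if any window matched. The plan was to take all tested genes, but 70.3% of them had an entry, under the minimum of 80%. The narrower population was chosen after seeing the data, and the shares over all tested genes are given with the alternatives. Other alternatives changed the test, scaling, filter, libraries, replicate block, motif, window or pair distance. Exact binomial intervals cover counting error only.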

Additional observations from a re-analysis of the deposited data

Results flagged for a closer look

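The response of the GABPA line differed from that of the other lines by the test of the difference itself. Against the GABPB1 line it was lower in 2174 and higher in 2046 of 16396 genes, and against the GABPB1/GABPB2 line lower in 1754 and higher in 1648. On the log2 scale, the difference from the GABPB1 line was −2.75 for Cops7a, −3.02 for Ebna1bp2, −3.93 for Ercc3, −2.95 for Nip7 and −3.36 for Wdr3. It was 1.95 for Btg2, 2.87 for Ddit4, 1.80 for the adhesion gene Mcam, 2.34 for Plk2 and 2.14 for Zfp365. Against the GABPB1/GABPB2 line it was −2.24 for Ebna1bp2, −3.40 for Ercc3, −2.55 for Nip7, −2.09 for Psmb4 and −3.69 for Wdr24. It was 1.82 for Btg2, 2.76 for Ddit4, 1.94 for the epoxide hydrolase gene Ephx1, 2.23 for Plk2 and 2.10 for Zfp365. Adjusted p-values of these differences from edgeR's quasi-likelihood test lay between 2.76e-12 and 1.53e-08. Groups of 2 libraries are too small for a search for outlying samples.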

How the results depend on the processing

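The counts of genes called in total RNA at 12 h stayed within 1.5 times of the reported values under DESeq2, DESeq2 size factors, total counts, no filter on low counts, an average log2 CPM of 3 or more, the 4 libraries fitted alone and the block; called falls ranged from 2569 to 3792 and rises from 3361 to 4062. Without 1 of the 4 libraries they were 3054 to 3341 and 3134 to 3387. Of 166 genes named, 1, Gtf2h5, lost its call under any of these settings. The replicate numbers share only a number (correlation of deviations −0.0327, −0.0092 and 0.0475 in the 3 lines); with the replicate block 3572 genes fell and 3970 rose, and 2133 and 2018 differed from the GABPB1 line. Leaving out each library in turn gave 1193 to 1847 responses higher than in the GABPB1 line and 1057 to 1580 higher than in the GABPB1/GABPB2 line. For new RNA it gave 2951 to 3788 calls at 12 h (1876 to 2205 lower, 1075 to 1662 higher) and 78 to 165 at 1 h (71 to 159 lower, 4 to 10 higher). The fit without a library pools the spread, so a lone sample is assumed to vary like the other groups. Genes risen in new RNA at 1 h numbered 16 with the libraries of that comparison alone and 33 with no low-count filter, against 9; the cause was not tested. With the longer CCGGAAGTG the share of promoters was 18.3% for falls over 4-fold, 11.2% for falls, 1.35% for rises, 3.09% for genes not called and 4.62% for all, by construction of a longer string. In the 100 bases before the start and the 50 after it, the shares were 34.6% for falls, 6.31% for rises, 9.6% for genes not called and 14.9% for all. Of 1716 list counts under these settings, 142 moved by more than 1.5 times, and the lists whose balance of falls and rises turned have those values beside them, except Wnt genes (10 fell and 11 rose, against 9 and 8 with the average log2 CPM of 3 or more and 10 and 9 with the 4 libraries alone) and remodeller genes (19 and 18, against 18 and 19 under DESeq2, no filter and the block). With all tested genes that have a promoter, a population of 70.3% of them, the shares with CCGGAAG were 59.3% for falls over 4-fold, 39.8% for falls, 9.51% for rises and 18.8% for all. The effect of depth on the calls in new RNA was not tested.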

Other observations

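Of the nuclear pore and nuclear transport, 18 of 57 tested fell and 11 rose (15 and 21 with a minimum average log2 CPM of 3), and the importin gene Ipo4 was at 157 and 166 CPM in DMSO and 30 and 30 CPM in dTAG-13 (−2.43 ± 0.068). Of vesicle coats and TRAPP, 13 of 38 tested fell and 10 rose, with Sec31a, of the outer COPII cage, at 220 and 226 CPM in DMSO and 82.6 and 77.4 CPM in dTAG-13 (−1.48 ± 0.064). Of signal recognition, Sec61 and tail-anchor insertion, 13 of 39 tested fell and 9 rose (5 rose without DMSO replicate 2 or dTAG-13 replicate 2); Ubl4a and Asna1, which act in succession on tail-anchored proteins, moved apart (−1.79 ± 0.086 and 0.59 ± 0.066). Of chromatin remodellers and histone acetylation complexes, 19 of 75 tested fell and 18 rose (11 rose without DMSO replicate 1, 15 fell and 18 rose without DMSO replicate 2, 15 and 22 without dTAG-13 replicate 1, and 16 and 33 with a minimum average log2 CPM of 3), and Brd9, of the non-canonical BAF complex, was at 42 and 43.2 CPM in DMSO and 3.72 and 5.25 CPM in dTAG-13 (−3.24 ± 0.14, adjusted p = 7.42e-12).

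Of filament, cadherin and integrin genes, 6 of 45 tested fell and 15 rose: Perp, a desmosomal protein and p53 target, was at 27.8 and 20.3 CPM in DMSO and 83.9 and 64.4 CPM in dTAG-13 (1.63 ± 0.13), and Cldn7, a tight junction protein, at 11.9 and 10.4 CPM in DMSO and 4.15 and 5.13 CPM in dTAG-13 (−1.26 ± 0.15). Of histone genes and their regulators, 7 of 31 tested fell and 4 rose. Npat, the activator of replication-dependent histone genes, and Slbp, which binds their mRNA ends, fell (−0.78 ± 0.1 and −0.73 ± 0.071). Most replication-dependent histone mRNAs lack poly(A) tails, so their own levels are not well sampled by polyadenylated RNA. Of serine and one-carbon genes, 6 of 23 tested fell and 8 rose (6 and 5 without DMSO replicate 1). The 2 cytosolic enzymes Shmt1 and Aldh1l1 moved apart (−1.12 ± 0.059 and 1.41 ± 0.093).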
